A study of Caenorhabditis elegans with 9 samples.

Results

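Mitochondrial ribosomal proteins build the ribosome inside mitochondria. Their 71 genes in *C. elegans* were taken as every gene of the deposited count table whose symbol is *mrpl-* or *mrps-* followed by a number and, in some, a letter, which selects 71 of 46926 genes. Of these, 42 carry an *mrpl* (large subunit) and 29 an *mrps* (small subunit) name, and all 71 were among the 14332 genes that passed the filter on low counts. The names were given by homology: in mammals the proteins named MRPS30 and MRPS18A sit in the large subunit. *dap-3*, whose mammalian counterpart is a small-subunit protein, has no such symbol and was not selected.

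The mitochondrial ribosome translates the messages of the mitochondrial genome, which in worms encode core subunits of the respiratory chain and of ATP synthase. Its own proteins are encoded in the nucleus, made in the cytosol and imported, so that the organelle depends on matched supply from both genomes. Some descend from the bacterial ribosome and others are found only in mitochondria. Knockdown of worm genes of this family, *mrps-5* among them, is known to lengthen life and to switch on a mitochondrial stress response.

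Whole worms of the strain N2, the wild type, were profiled by RNA sequencing after polyA enrichment. They were grown on HT115 bacteria to adult day 1 and then moved for 24 h to plates with 10 µg/ml kanamycin, which stops bacterial growth. There they had no bacteria (DR0), diluted bacteria (DR1) or undiluted bacteria (ad libitum, AL). Each condition had 3 libraries, and all worms shared the strain, the bacterial source and the antibiotic. No source states if the 3 libraries of a condition were separate cultures, so that p values measure the spread between these libraries. In whole worms, fewer cells of a type and less RNA per cell cannot be told apart.

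Total counts ran from 9203611 to 12012750 per library, and the count of a member in a library from 114 to 1956. Levels are CPM, the count of a gene scaled to the size of its library, on library sizes set by TMM, a method of edgeR that centres most genes. The s.e. of a log2 fold change was taken as its size over the root of the F statistic. Adjusted p values are from edgeR's quasi-likelihood test with Benjamini–Hochberg adjustment over the 14332 genes. The TMM factors averaged 0.947 in DR0, 1.16 in DR1 and 0.911 in AL, so that the choice of scaling matters here. With libraries scaled by total counts instead, the median log2 fold change of all genes was 0.38 in DR1 against AL and -0.29 in DR0 against DR1, beside 0.03 and 0.01 with TMM. Upper-quartile scaling put that median at 0.23 in DR1 and 0.24 in DR0 against AL.

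Members spanned a wide range of levels. Per kb of exon, the median member stood at 63.1 CPM in DR0, 55.9 in DR1 and 56.0 in AL. The highest member exceeded the lowest by 24.9-fold in DR0, 14.1-fold in DR1 and 19.3-fold in AL. *mrps-24*, a homologue of a bacterial small-subunit protein, was the highest averaged over all libraries, at 226 ± 14 CPM per kb in DR0, 183 ± 8.1 in DR1 and 302 ± 5.1 in AL (SD, n = 3). It was followed by *mrpl-36*, *mrps-33*, *mrps-11* and *mrpl-9*, whose averages over the 9 libraries lay between 149.5 and 168.5 CPM per kb. At 192 ± 3.5 CPM per kb, *mrps-11* stood second to *mrps-24* in DR0, whereas it averaged 120 ± 10 in AL. The lowest was *mrps-31*, a protein found only in mitochondria, at 9.1 ± 1.6 CPM per kb in DR0, 13.04 ± 0.65 in DR1 and 15.6 ± 1.9 in AL. *mrpl-45*, whose mammalian counterpart lies near the exit tunnel and anchors the ribosome to the inner membrane, and *mrpl-42* came next from the bottom. In *mrpl-42*, 59.3% of exon bases are shared with *lpl-1* on the same strand, and reads that fall in such stretches are not counted.

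**Figure D1:**
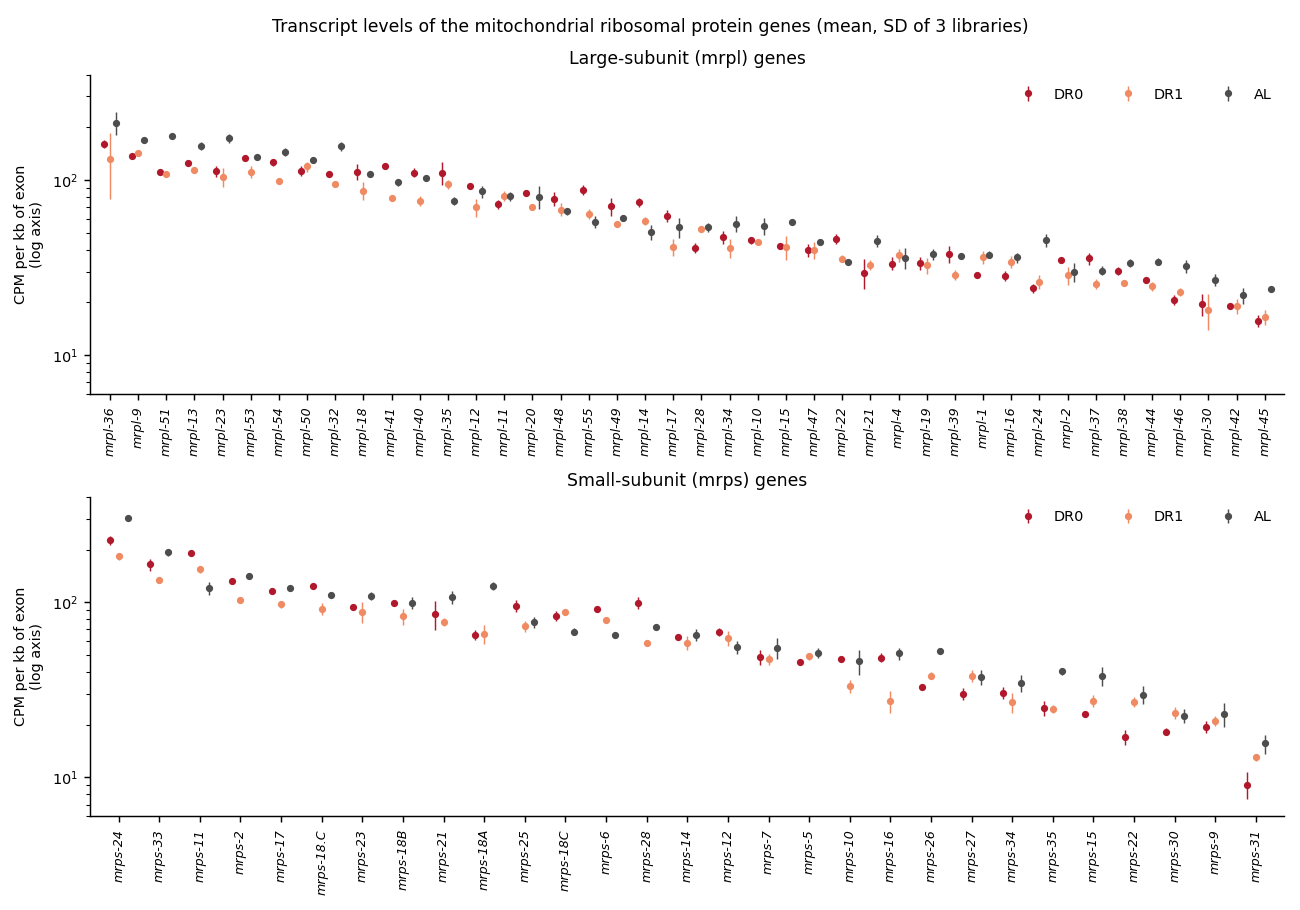
Transcript level of each of the 71 genes in CPM per kb of exon (log axis), large-subunit genes above and small-subunit genes below, ordered by their average over all libraries. Points are means and bars SD of 3 libraries, with DR0 left, DR1 in the middle and AL right for each gene. *mrps-24* stood highest, at 302 CPM per kb in AL, and *mrps-31* lowest, at 9.1 CPM per kb in DR0.

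The balance between subunits was read within each library. The mean level per kb of *mrpl* genes divided by that of *mrps* genes was 0.892, 0.917 and 0.911 in DR0, 0.910, 0.955 and 0.903 in DR1, and 0.943, 0.953 and 0.936 in AL. This ratio does not depend on how libraries are scaled. The DR0 libraries lay below the AL libraries, and the DR1 libraries overlapped with both.

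The first question was how members differ between worms on diluted bacteria and worms fed ad libitum. In DR1 against AL, 42 members fell and 5 rose, beside 31.6% and 28.5% of all genes tested. The median log2 fold change was -0.30 over the members and 0.03 over all genes, with a range over members from -0.91 to 0.38. None passed a 2-fold change, beside 19.2% of all genes. edgeR gave 50 members an unadjusted p under 0.05, and neither limma-voom nor DESeq2 placed any member past 2-fold. Of the 42 falls, 10 were called under each of the 5 scalings tried: *mrpl-23*, *mrpl-24*, *mrpl-32*, *mrpl-51*, *mrpl-54*, *mrps-16*, *mrps-18A*, *mrps-24*, *mrps-33* and *mrps-35*. All 5 rises were called under each of them. With total-count scaling, 10 members fell and 22 rose, beside 2495 and 7053 of the 14332 genes tested. The net direction of the members' calls turned, while their median less that of all genes was -0.33 with this scaling and with TMM.

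The second question was the same for worms without bacteria. In DR0 against AL, 33 members fell and 14 rose, beside 31% and 29.6% of all genes tested. The median was -0.17 over the members and 0.03 over all genes, and members ranged from -0.93 to 0.68. Again none passed 2-fold in edgeR, limma-voom or DESeq2, beside 19.5% of all genes, while 51 members had an unadjusted p under 0.05. All 14 rises and 16 of the 33 falls were called under each of the 5 scalings. With upper-quartile scaling 25 rose and 17 fell, beside 5846 and 3009 of all genes tested. The members' median less that of all genes was -0.205 with this scaling and with TMM. With quantile normalization 23 rose and 19 fell, beside 4111 and 3812 of all genes, and that difference was -0.03. Both scalings turn the net direction of the members' calls. With a trend on exon length removed, as described below, 9 rose and 46 fell, with a median of -0.30. Both comparisons share the AL libraries. Side by side, 25 members fell in both and 5 rose in both, 3 fell in DR1 and rose in DR0, 14 passed as falls in DR1 and not in DR0, 8 as falls in DR0 and not in DR1, 6 as rises in DR0 and not in DR1, and 10 passed in neither. These pairs of calls were not counted over all genes, so that how common each is among genes is not known.

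The direct test of the difference set worms without bacteria against worms on diluted bacteria. In DR0 against DR1, 30 members were higher and 9 lower, beside 21.2% and 17.8% of all genes, with a median of 0.14 over members and 0.01 over all genes. None passed 2-fold in edgeR, limma-voom or DESeq2, beside 2.46% of all genes, and 41 had an unadjusted p under 0.05. The 8 lower members called under each scaling were *mrpl-1*, *mrpl-16*, *mrpl-28*, *mrps-22*, *mrps-26*, *mrps-27*, *mrps-30* and *mrps-31*. Of the higher members only *mrpl-17*, *mrpl-40*, *mrpl-41*, *mrps-16* and *mrps-28* were called under each of the 5 scalings. Total-count scaling left 5 higher and 29 lower, beside 1293 and 5609 of all genes tested. The members' median less that of all genes was 0.13 with this scaling and with TMM.

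**Figure D2:**
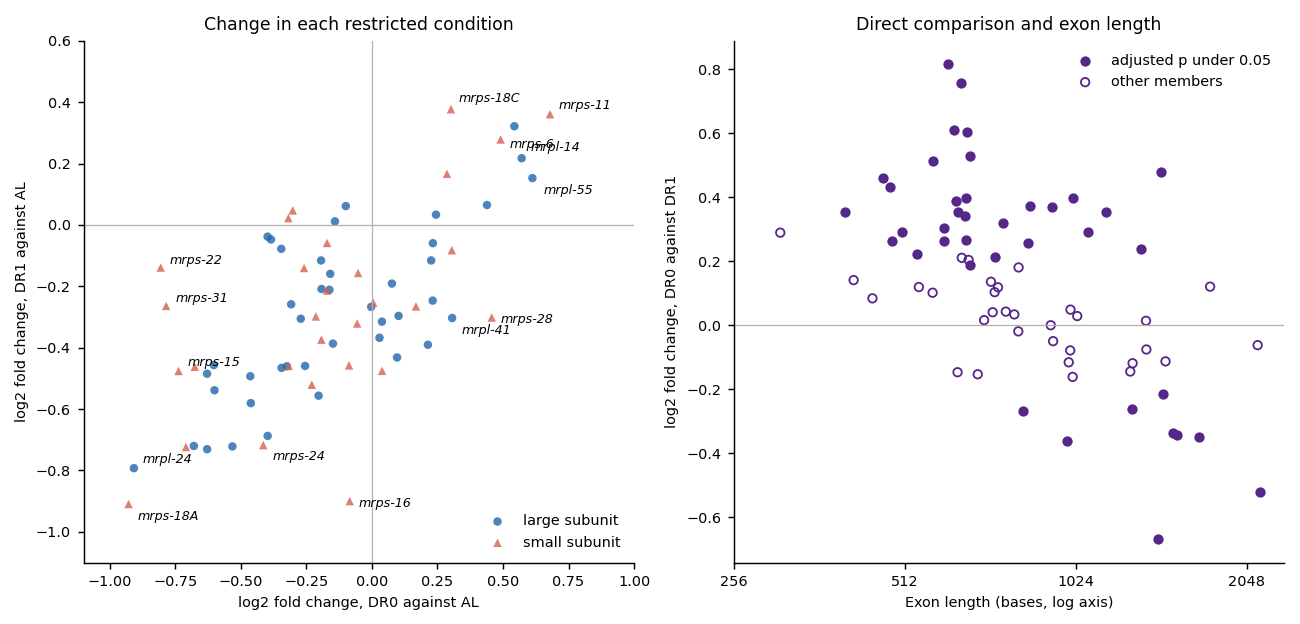
Left, the log2 fold change of each member in DR0 against AL (x axis) and in DR1 against AL (y axis), which share the AL libraries, circles for the large and triangles for the small subunit. Right, the log2 fold change in DR0 against DR1 by exon length in bases (log axis), filled where the adjusted p was under 0.05. The shortest 24 members had a median of 0.30 and the longest 24 a median of -0.10 on the right.

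In this direct test the members' values varied with the length of their exons. The 24 shortest members, of 309 to 656 bases, had a median log2 fold change of 0.30 in DR0 against DR1, with 17 higher and 0 lower. The 24 longest, of 995 to 2164 bases, had a median of -0.10, with 5 higher and 7 lower. Among all genes tested, 21.2% were higher and 17.8% lower. Genes of these lengths were not counted apart, so that how common such counts are among them is not known. Across the 71 members the Pearson correlation with log2 exon length was -0.58 (Spearman -0.57), and across all 14332 genes it was -0.35 (Spearman -0.39). Genes are not independent replicates, share the same libraries, and this is a description. Against AL the members' correlation was 0.14 in DR1 and -0.33 in DR0. With a trend on exon length removed in each library, an alternative chosen after seeing the data, 10 members were higher and 17 lower in DR0 against DR1. Among all genes tested, 2731 were then higher and 2244 lower. The part of read coverage or RNA quality in the trend was not tested.

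As a family, members took up a small part of the counts. Their summed CPM was 3866, 3746 and 3778 in DR0, 3449, 3505 and 3340 in DR1, and 4122, 4192 and 4217 in AL. On this scale the conditions did not overlap, with DR1 lowest and AL highest. As a share of all counts, however, members made up 0.364, 0.355 and 0.357% in DR0, 0.398, 0.406 and 0.386% in DR1, and 0.376, 0.381 and 0.384% in AL. There DR1 was the highest condition, above each AL library, and DR0 the lowest. The order of DR1 and AL thus depends on the scaling. DR0 was below AL on both of these scales, whereas with upper-quartile scaling the median member was at 0.04 in DR0 against AL, beside 0.24 over all genes tested.

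**Figure D3:**
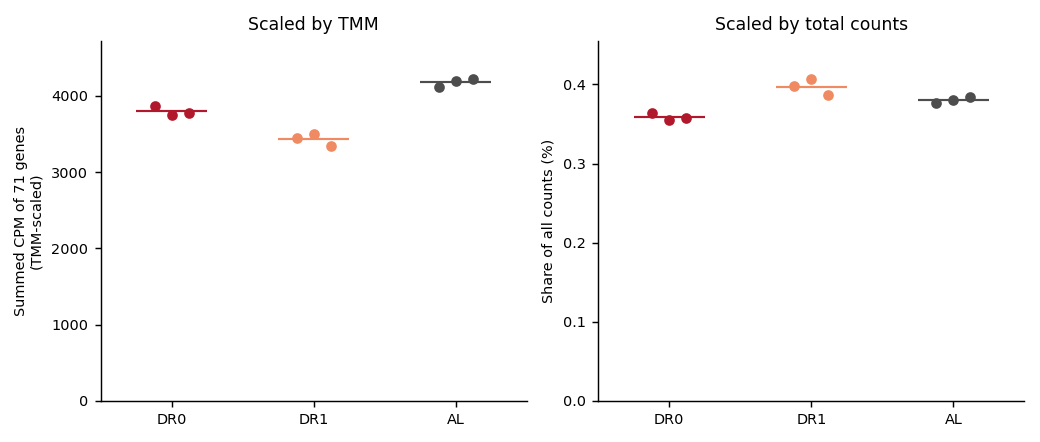
Summed level of the 71 genes in each library, as CPM scaled by TMM (left) and as a share of all counts in percent (right), with DR0, DR1 and AL from left to right. Points are libraries and lines are means of 3. DR1 is lowest on the left, at 3340 to 3505 CPM, and highest on the right, at 0.386 to 0.406%.

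The members that rose in both restricted conditions were *mrps-11*, *mrps-6*, *mrps-18C*, *mrpl-14* and *mrpl-35*. *mrps-11* (chromosome V, 12493239 to 12494622, minus strand), a homologue of the bacterial small-subunit protein S11, had 147, 144 and 149 CPM in DR0, 121, 121 and 111 CPM in DR1, and 84.2, 99.5 and 90.9 CPM in AL. The 3 conditions did not overlap and DR0 was highest. Its log2 fold change was 0.68 ± 0.06 in DR0 and 0.36 ± 0.06 in DR1 (s.e.; adjusted p = 6.99e-10 and 1.24e-05, edgeR). It was also higher in DR0 than in DR1, by 0.32 ± 0.06 (adjusted p = 7.45e-05), although only by 0.03 with total-count scaling and 0.12 with the length trend removed, where it was not called.

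*mrps-6*, a homologue of bacterial S6, had 64.7, 67.9 and 69.5 CPM in DR0, 58.7, 59.3 and 56.6 CPM in DR1, and 48.2, 46.8 and 48.8 CPM in AL. On this scale the libraries separated fully, with DR0 highest. The change was 0.49 ± 0.07 in DR0 and 0.28 ± 0.07 in DR1 (edgeR adjusted p = 9.49e-07 and 0.000854). Its difference of 0.21 in DR0 against DR1 turned to -0.08 with total-count scaling and was 0.0017 with the length trend removed. Of the large subunit, *mrpl-14* averaged 86.1 ± 4.73 CPM in DR0, 67.4 ± 3.67 in DR1 and 58.2 ± 5.47 in AL (SD, n = 3). DR1 replicate 1 of *mrpl-14*, at 63.2 CPM, matched AL replicate 2. Its rise of 0.22 in DR1 lost significance without AL replicate 3, where it was 0.14, whereas the rise of 0.57 ± 0.07 in DR0 had an adjusted p of 3.83e-07 (edgeR). In the current annotation this gene is named F45E12.5.

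*mrpl-35* averaged 59.1 ± 8.81 CPM in DR0, 50.9 ± 3.03 in DR1 and 40.7 ± 2.17 in AL (SD, n = 3). Both restricted conditions lay above AL, by 0.54 ± 0.09 in DR0 and 0.32 ± 0.09 in DR1 (edgeR adjusted p = 1.86e-05 and 0.00384). Its higher level in DR0 than in DR1, by 0.22, was 0.09 without DR0 replicate 3, at 69.3 CPM, and also missed the threshold without AL replicate 1 (0.22), AL replicate 3 (0.22), DR1 replicate 1 (0.24) or DR1 replicate 3 (0.17). *mrpl-55* rose in DR0, with 42.9, 42.7 and 38.1 CPM in DR0, 31.3, 31.2 and 27.5 CPM in DR1, and 25.6, 25.7 and 29.3 CPM in AL. DR0 stood apart from the other conditions, by 0.61 ± 0.10 against AL and 0.46 ± 0.09 against DR1 (edgeR adjusted p = 6.5e-06 and 0.000263). The difference from DR1 fell short, at 0.17 by total counts and 0.13 with the length trend removed, and in DR1 against AL a rise was called at 0.50, 0.35 and 0.29 with total-count, upper-quartile and quantile scaling.

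The deepest fall was in *mrps-18A* (chromosome III, 8330893 to 8331919, minus strand). It had 55.1, 54.7 and 49.03 CPM in DR0, 56.8, 45.7 and 58.0 CPM in DR1, and 94.9, 102 and 105 CPM in AL. Every restricted library lay far below every AL library, and DR0 overlapped with DR1. The change was -0.93 ± 0.08 in DR0 and -0.91 ± 0.08 in DR1 (edgeR adjusted p = 5.68e-10 and 4.52e-10). With total-count scaling the fall in DR1 was still -0.56. A stretch of 24.0% of its exon bases is shared with *iglr-2* on the same strand.

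The S18 family, named after bacterial small-subunit protein S18, has 4 members with a letter in their symbol, and they did not move as a group. *mrps-18C* (chromosome III, 4935578 to 4937221, plus strand) had 120.7, 114.6 and 106.8 CPM in DR0, 124.8, 120.7 and 114.9 CPM in DR1, and 96.8, 92.8 and 88.0 CPM in AL. Both restricted conditions lay above AL, by 0.30 ± 0.06 in DR0 and 0.38 ± 0.06 in DR1 (edgeR adjusted p = 0.000117 and 5.39e-06). *mrps-18B* changed by 0.00 ± 0.07 in DR0 and by -0.25 ± 0.07 in DR1 against AL, and *mrps-18.C* by 0.17 ± 0.07 in DR0 and -0.27 ± 0.07 in DR1. The falls of these last 2 genes in DR1 passed the test (edgeR adjusted p = 0.0043 and 0.00337) but turned to 0.09 and 0.08 with total-count scaling and were not called with upper-quartile or quantile scaling. The changes in DR0 did not pass with TMM and all libraries. That of *mrps-18.C* did without DR1 replicate 2 or DR1 replicate 3 (0.17 each) and with total-count, upper-quartile and quantile scaling (0.22, 0.37 and 0.35). That of *mrps-18B* did with upper-quartile scaling (0.21). Counted within each library, *mrps-18C* reads per *mrps-18A* read were 2.19, 2.09 and 2.18 in DR0, 2.2, 2.64 and 1.98 in DR1, and 1.02, 0.914 and 0.837 in AL. No scaling of libraries enters this ratio, which was chosen after the values were seen, and all restricted libraries lay above all AL libraries.

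**Figure D4:**
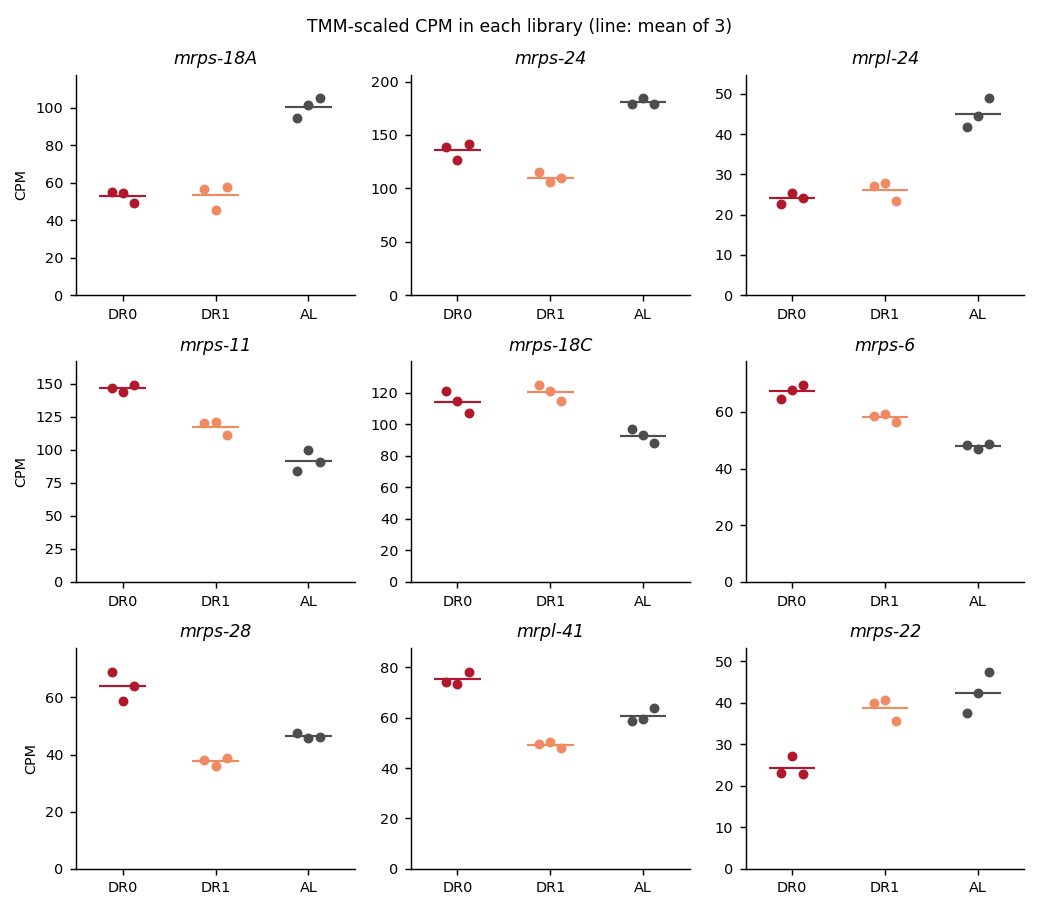
TMM-scaled CPM of 9 members in each library, with DR0, DR1 and AL from left to right in each panel. Points are libraries and lines are means of 3. *mrps-18A* and *mrpl-24* fell in both restricted conditions, *mrps-11* and *mrps-6* rose in both (their differences in DR0 against DR1 were 0.03 and -0.08 with total-count scaling), *mrps-28* and *mrpl-41* were lowest in DR1 (not with total-count scaling, where their changes in DR1 against AL were 0.05 and 0.04), and *mrps-22* fell in DR0.

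Other members fell in both restricted conditions. *mrpl-24*, whose bacterial homologue acts early in large-subunit assembly, had 22.6, 25.4 and 24.1 CPM in DR0, 27.01, 27.9 and 23.5 CPM in DR1, and 41.8, 44.5 and 48.96 CPM in AL. The restricted libraries overlapped each other and none reached AL. The change was -0.91 ± 0.10 in DR0 and -0.79 ± 0.09 in DR1 (edgeR adjusted p = 2.74e-08 and 1.23e-07). *mrpl-23*, whose bacterial homologue sits at the exit tunnel, averaged 64.2 ± 4.67 CPM in DR0, 59.8 ± 7.22 in DR1 and 99.2 ± 6.0 in AL (SD, n = 3). *mrps-35*, a protein found only in mitochondria, averaged 33.7 ± 3.28 CPM in DR0, 33.4 ± 1.84 in DR1 and 55.2 ± 2.54 in AL. Both had no overlap between restricted and AL libraries, with log2 fold changes from -0.63 to -0.73. In *mrps-35*, 11.1% of exon bases are shared with *sws-1* on the opposite strand, and without strand such reads cannot be assigned.

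The most abundant member by level per kb, *mrps-24*, fell in both restricted conditions. The gene (chromosome IV, 7710045 to 7710828, plus strand) had 138.8, 126.4 and 141.8 CPM in DR0, 115.2, 105.5 and 109.4 CPM in DR1, and 179, 185 and 179 CPM in AL. The 3 conditions separated, with DR1 lowest. Against AL the change was -0.41 ± 0.05 in DR0 and -0.72 ± 0.05 in DR1 (edgeR adjusted p = 3.26e-07 and 2.46e-11). DR0 exceeded DR1 by 0.30, but only by 0.01 with total-count scaling and 0.03 with the length trend removed, where the difference was not called. *mrps-33* and *mrpl-9* also fell in both, by -0.23 and -0.31 in DR0 and by -0.52 and -0.26 in DR1, and the fall of *mrpl-9* in DR1 turned to 0.09 with total-count scaling. *mrps-15* fell by -0.74 ± 0.09 in DR0 and -0.48 ± 0.09 in DR1. *mrpl-45* and *mrpl-44*, whose mammalian counterpart has an RNase III fold, fell by -0.60 and -0.35 in DR0 and by -0.54 and -0.47 in DR1, and 9.4% of the exon bases of *mrpl-44* are shared with *mccc-2*. With total-count scaling the falls in DR1 of *mrps-15* (-0.13), *mrpl-45* (-0.19) and *mrpl-44* (-0.12) were not called, and with upper-quartile scaling those in DR0 of *mrps-33* (-0.02), *mrpl-9* (-0.10) and *mrpl-44* (-0.14) were not called.

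Some members were lower in DR1 than in both other conditions. *mrps-16* (chromosome II, 5474373 to 5475420, plus strand), a homologue of bacterial S16, had 27.6, 29.6 and 30.96 CPM in DR0, 15.5, 15.04 and 19.4 CPM in DR1, and 29.9, 29.5 and 33.95 CPM in AL. DR1 lay below the other conditions, which overlapped. The change was -0.90 ± 0.11 in DR1 against AL and 0.81 ± 0.11 in DR0 against DR1 (edgeR adjusted p = 2.5e-07 and 2.57e-06), and both held under each scaling. Without DR1 replicate 3 the fall in DR1 was -1.03, past 2-fold. In *mrps-16*, 27.8% of exon bases are shared with *ilcr-2* on the same strand. *mrpl-17* likewise averaged 41.3 ± 3.06 CPM in DR0, 27.2 ± 2.96 in DR1 and 35.4 ± 4.59 in AL (SD, n = 3), and DR0 exceeded DR1 by 0.60 ± 0.10 (edgeR adjusted p = 4.31e-05). In DR0 against AL it was at 0.21, short of the threshold, and passed at 0.32 without AL replicate 3 and at 0.27 and 0.42 with total-count and upper-quartile scaling. Its fall in DR1 against AL, of -0.39, was -0.04 with total-count and -0.19 with upper-quartile scaling and was not called in either.

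In 3 members the restricted conditions moved in opposite directions. *mrps-28* (chromosome V, 19644239 to 19645676, plus strand) had 69.0, 58.7 and 63.9 CPM in DR0, 38.1, 36.1 and 38.95 CPM in DR1, and 47.6, 45.95 and 46.03 CPM in AL. *mrpl-41*, a protein found only in mitochondria, had 74.0, 73.4 and 78.2 CPM in DR0, 49.6, 50.5 and 47.9 CPM in DR1, and 58.8, 59.6 and 63.97 CPM in AL. *mrpl-37*, also found only in mitochondria, had 52.8, 46.98 and 54.9 CPM in DR0, 38.3, 34.2 and 38.5 CPM in DR1, and 42.9, 41.8 and 46.9 CPM in AL. In all 3 the conditions separated, with DR0 highest and DR1 lowest. Against AL, *mrps-28* changed by 0.46 ± 0.08 in DR0 and -0.30 ± 0.08 in DR1, *mrpl-41* by 0.31 ± 0.07 and -0.30 ± 0.07, and *mrpl-37* by 0.23 ± 0.08 and -0.25 ± 0.08. In DR0 against DR1 the differences were 0.76 ± 0.08, 0.61 ± 0.06 and 0.48 ± 0.08 (edgeR adjusted p = 1.32e-08, 4.7e-08 and 4.73e-05). The falls in DR1 turned to 0.05, 0.04 and 0.10 with total-count scaling and were not called with upper-quartile or quantile scaling. With the length trend removed the rise of *mrpl-41* in DR0 was 0.11 and not called, and with total-count scaling *mrpl-37* was not called in DR0 against DR1 (0.19). For *mrpl-37* the rise in DR0 missed the threshold without AL replicate 1 (0.21), AL replicate 2 (0.19), DR0 replicate 1 (0.21) or DR0 replicate 3 (0.18), and the fall in DR1 without AL replicate 3 (-0.20) or DR1 replicate 2 (-0.19).

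Other members were lower in DR0 than in both other conditions. *mrps-22*, a protein found only in mitochondria, had 23.1, 27.1 and 22.8 CPM in DR0, 39.9, 40.6 and 35.5 CPM in DR1, and 37.4, 42.3 and 47.4 CPM in AL. DR0 lay below the other conditions, which overlapped. The change was -0.81 ± 0.10 against AL and -0.67 ± 0.10 against DR1 (edgeR adjusted p = 3.96e-07 and 9.98e-06). *mrps-31*, the lowest member, averaged 19.7 ± 3.42 CPM in DR0, 28.2 ± 1.41 in DR1 and 33.8 ± 4.19 in AL (SD, n = 3), with -0.79 ± 0.12 in DR0 against AL. Its fall in DR1, at an adjusted p of 0.0484 (edgeR), missed the threshold without AL replicate 1 (-0.24), AL replicate 3 (-0.19), DR1 replicate 1 (-0.26), DR1 replicate 2 (-0.22) or DR0 replicate 3 (-0.27), and turned to 0.08 with total-count scaling. *mrpl-28*, *mrps-30* and *mrps-27* fell by -0.40, -0.30 and -0.32 in DR0 against AL, and in DR1 against AL were at -0.04, 0.05 and 0.02. In DR0 against DR1 they were lower by -0.36, -0.35 and -0.34 (edgeR adjusted p = 0.000437, 0.00313 and 0.00195). With upper-quartile scaling the falls of *mrps-30* (-0.095) and *mrps-27* (-0.11) in DR0 against AL were not called, and with total-count scaling *mrpl-28*, *mrps-30* and *mrps-27* were called rises in DR1 (0.31, 0.39 and 0.37). *mrps-27* shares 6.81% of its exon bases with *hinf-1*.

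Members studied by RNAi in the worm or placed at the core of the ribosome gave mixed values. *mrps-5* had 67.9, 66.0 and 67.3 CPM in DR0, 72.1, 69.0 and 76.2 CPM in DR1, and 72.0, 73.2 and 81.0 CPM in AL. It was lower in DR0 by -0.17 ± 0.07 (edgeR adjusted p = 0.0272), a call lost without AL replicate 3 (-0.12), without DR0 replicate 2 (-0.16) or without DR0 replicate 3 (-0.18), and turned to 0.04 with upper-quartile scaling. In DR1 it was at -0.06 ± 0.06 (adjusted p = 0.439). *mrpl-1* fell in DR0 by -0.39 ± 0.08 (edgeR adjusted p = 0.000132) and was at -0.05 ± 0.07 in DR1, with 18.1% of its exon bases shared with *emc-6*. *mrpl-2* passed in neither comparison against AL, at 0.23 ± 0.10 in DR0 and -0.06 ± 0.10 in DR1, though its rise in DR0 passed without AL replicate 1 (0.28), AL replicate 3 (0.28) or any DR1 library (0.23 to 0.24). *mrpl-12*, of the stalk that recruits translation factors, was at 0.10 ± 0.08 in DR0 and fell by -0.30 ± 0.08 in DR1. *mrps-12*, of the decoding centre, rose by 0.29 ± 0.10 in DR0 and was at 0.17 ± 0.09 in DR1 (edgeR adjusted p = 0.0134 and 0.135). With total-count scaling *mrpl-1* and *mrpl-2* were called rises of 0.30 and 0.29 in DR1, *mrps-5* was a called rise of 0.29 there, and the fall of *mrpl-12* turned to 0.05. With upper-quartile scaling *mrpl-2* and *mrpl-12* were called rises of 0.44 and 0.31 in DR0, and with quantile normalization the fall of *mrpl-1* in DR0 was -0.18 and not called. The rise of *mrps-12* was 0.06 in DR0 with the length trend removed and not called, and in DR1 it was called at 0.51, 0.37 and 0.31 with total-count, upper-quartile and quantile scaling. The rise of *mrps-12* in DR0 was lost without AL replicate 1 (0.22) or DR0 replicate 3 (0.25), and a rise of 0.24 in DR1 passed without DR1 replicate 3.

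*mrpl-36* was the least even member within a condition. It had 47.4, 49.2 and 52.3 CPM in DR0, 35.2, 59.8 and 27.8 CPM in DR1, and 58.6, 77.0 and 61.2 CPM in AL. DR1 replicate 2 overlapped with AL and the other DR1 libraries lay below it, giving a coefficient of variation of 40.9% in DR1 against a median of 6.84% over the members. The fall in DR1 was -0.69 ± 0.16 with all libraries and -1.05 without DR1 replicate 2, and the fall of -0.40 ± 0.16 in DR0 missed the threshold without AL replicate 2 (-0.28), AL replicate 3 (-0.45), DR0 replicate 1 (-0.37), DR0 replicate 2 (-0.40) or DR0 replicate 3 (-0.44). DR0 exceeded DR1 by 0.29 ± 0.17, which did not pass, and by 0.66 without DR1 replicate 2, which did. With total-count scaling neither fall of *mrpl-36* was called (-0.34 in each of DR0 and DR1).

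By subunit and by origin, the counts were as follows. Beside them, 31.6% of all genes tested fell and 28.5% rose in DR1, and 31% fell and 29.6% rose in DR0. In DR1 against AL, 25 of 42 *mrpl* genes fell and 2 rose, and 17 of 29 *mrps* genes fell and 3 rose, with medians of -0.30 and -0.27. In DR0 against AL, 20 *mrpl* genes fell and 8 rose, and 13 *mrps* genes fell and 6 rose, with medians of -0.18 and -0.17. Of the 42 members with a bacterial homologue, the S18 family aside, 22 fell and 4 rose in DR1 and 18 fell and 8 rose in DR0. The 4 members of the S18 family were counted apart: 3 fell and 1 rose in DR1, and 1 fell and 1 rose in DR0. Of the 25 members found only in mitochondria, 17 fell and 0 rose in DR1 and 14 fell and 5 rose in DR0. These counts are with TMM. Over all 71 members, total-count scaling gave 10 lower and 22 higher in DR1, and upper-quartile scaling 17 lower and 25 higher in DR0. Over all 14332 genes tested, these gave 2495 lower and 7053 higher, and 3009 lower and 5846 higher. The groups were not counted under those scalings. No test of the difference between these groups was made.

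The respiratory chain and the cytosolic ribosome offer a measure of how members compare with their partners. Beside these lists, 31.6% of all genes tested fell and 28.5% rose in DR1, and 31% fell and 29.6% rose in DR0. The 12 protein-coding genes of the mitochondrial genome, which members translate, had a median of -0.58 in DR1, with 11 lower and 0 higher, and of -0.13 in DR0, with 6 lower and 2 higher. In DR1 these genes had 4 lower and 3 higher with quantile normalization (median -0.12) and 7 lower and 2 higher with total-count scaling (median -0.23), and in DR0 they had 0 lower and 5 higher with upper-quartile scaling (median 0.07). In DR0 against DR1, 11 of them were higher and 0 lower, but 1 higher and 8 lower with quantile normalization. Of 37 nuclear-encoded subunits of oxidative phosphorylation, 31 fell and 3 rose in DR1 (median -0.41), whereas 5 fell and 23 rose in DR0 (median 0.21). In DR1 this list had 17 lower and 8 higher by total counts (median -0.06), and 18 lower and 8 higher with quantile normalization (median -0.14), and in DR0 it had 11 lower and 16 higher with the length trend removed (median 0.10). Of 80 cytosolic ribosomal proteins, 72 fell and 1 rose in DR1 (median -0.61), and 6 fell and 55 rose in DR0 (median 0.18). With the length trend removed, 27 of them were lower and 23 higher in DR0 (median -0.0040). With quantile normalization the cytosolic ribosomal proteins had a median of -0.01 in DR1, with 21 lower and 14 higher.

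In DR0 against DR1 most genes of these nuclear lists were higher: 73 of 80 cytosolic ribosomal proteins were higher and 0 lower (median 0.82), and 32 of 37 oxidative phosphorylation subunits were higher and 2 lower (median 0.62). Beside them members were mixed, with 30 higher, 9 lower and a median of 0.14. The medians of these 3 lists, in that order, came to 0.53, 0.33 and -0.16 by total counts, to 0.22, 0.39 and 0.15 after quantile normalization and to 0.56, 0.46 and -0.06 with the length trend removed. Over all genes tested, 21.2% were higher and 17.8% lower with TMM, with a median of 0.01. That median came to -0.29 by total counts, -0.01 after quantile normalization and -0.02 with the length trend removed. With quantile normalization 55 cytosolic ribosomal proteins were higher and 4 lower. *rla-0*, of the stalk of the cytosolic ribosome, rose by 1.01 ± 0.03 and *atp-4*, an ATP synthase subunit, by 0.89 ± 0.04 (edgeR adjusted p = 5.63e-19 and 5.07e-14), larger than the 0.81 ± 0.11 of *mrps-16*, the highest member. Whether the lists differ was not tested.

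Factors that act on the mitochondrial ribosome were examined next. Of all genes tested, 31.6% fell and 28.5% rose in DR1, and 31% fell and 29.6% rose in DR0. Of 12 translation and ribosome assembly factors, 5 fell and 0 rose in DR1, and 9 fell and 0 rose in DR0, with medians of -0.24 and -0.32. With total-count scaling 1 was lower and 5 higher in DR1 (median 0.10), and with upper-quartile scaling 1 was lower and 3 higher. *eral-1*, whose mammalian counterpart is a chaperone of the small-subunit rRNA, fell by -0.93 ± 0.10 in DR0 and -0.63 ± 0.09 in DR1 (edgeR adjusted p = 1.42e-08 and 2.37e-06). Of 12 mitochondrial aminoacyl-tRNA synthetases, which charge the tRNAs it uses, 4 fell and 2 rose in DR1 and 6 fell and 2 rose in DR0. The falls in DR1 were 33.3% of this list, near the 31.6% of all genes. With total-count scaling 3 were lower and 6 higher in DR1 (median 0.23), and with upper-quartile scaling 3 were lower and 4 higher. *rars-2* fell by -1.04 ± 0.08 in DR0 (edgeR adjusted p = 6.93e-11). Of the 2 ribosomal RNAs of the mitochondrial genome, *MTCE.33* rose by 1.04 ± 0.06 in DR0 and 0.36 ± 0.06 in DR1 (edgeR adjusted p = 1.19e-12 and 3.87e-05), and the other rose by 0.73 in DR0 and was at 0.10 in DR1, short of the threshold. These libraries were polyA-enriched, and the part of polyA capture in those rises was not tested.

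**Figure D5:**
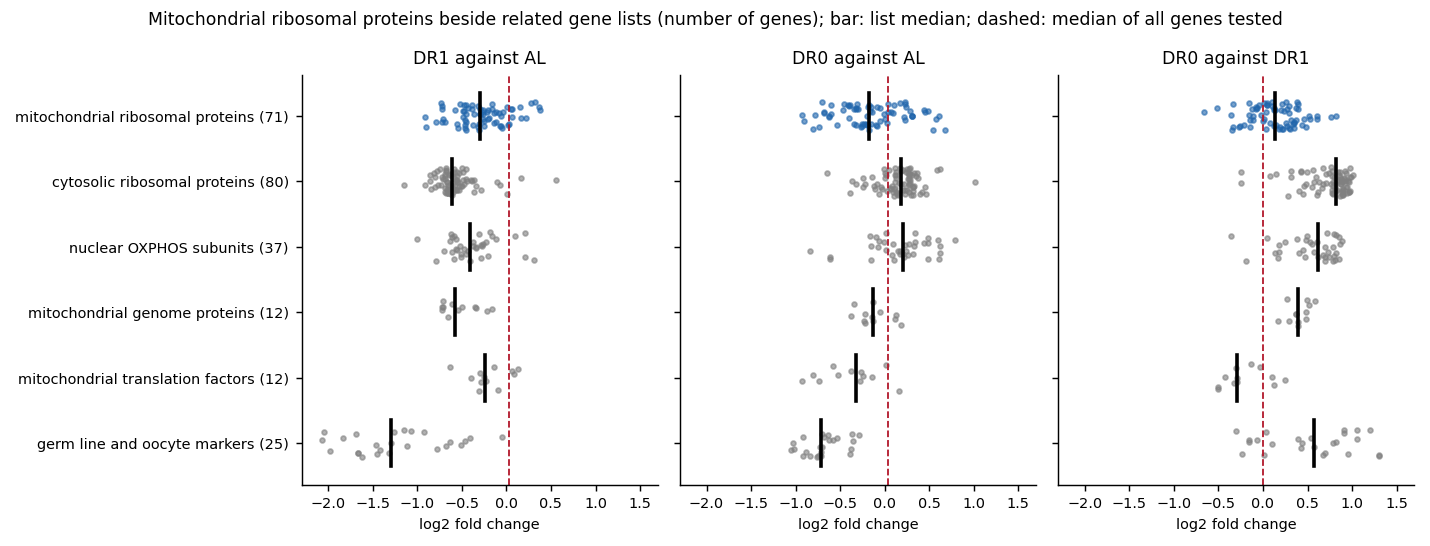
Log2 fold change of each gene in the 71 mitochondrial ribosomal proteins and 5 other lists, in DR1 against AL, DR0 against AL and DR0 against DR1. Points are genes, bars list medians and dashed lines the median of all genes tested. Members centre on -0.30, -0.17 and 0.14, and the cytosolic ribosomal proteins on -0.61, 0.18 and 0.82. With total-count scaling the members' medians in DR1 against AL and DR0 against DR1 were 0.05 and -0.16, beside 0.38 and -0.29 over all genes tested.

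Import and quality control of mitochondrial proteins were also examined, beside 31.6% of all genes tested that fell in DR1 and 31% that fell in DR0. Of 12 import genes, 11 fell and 0 rose in DR1 and 5 fell and 1 rose in DR0, while with upper-quartile scaling 4 were lower and 4 higher in DR0 and with the length trend removed 10 were lower and 1 higher. In this list *tomm-20*, an outer-membrane receptor, was higher in DR0 than in DR1 by 0.83 ± 0.06 (edgeR adjusted p = 1.45e-11). Of 11 genes of the mitochondrial unfolded protein response and proteases, 5 fell in DR1, 6 fell in DR0 and 0 rose in either. With total-count scaling 3 were lower and 6 higher in DR1 (median 0.28, against -0.07 with TMM), and with upper-quartile scaling 4 were lower and 2 higher in DR0. The chaperonin *hsp-60* fell by -0.93 ± 0.07 in DR0 and -1.03 ± 0.07 in DR1 (edgeR adjusted p = 2.15e-11 and 2.06e-12). Of 5 genes of mitochondrial DNA upkeep and transcription, 2 fell and 0 rose in DR1 and 3 fell and 1 rose in DR0. The RNA polymerase *rpom-1* fell by -0.36 ± 0.13 and *tfbm-1* rose by 0.40 ± 0.13 in DR0 (edgeR adjusted p = 0.0244 and 0.0111). With total-count scaling 3 of the 5 were higher and 0 lower in DR1 (median 0.26).

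Markers of cell types moved with the conditions. Of 25 germ line and oocyte markers, 24 fell and 0 rose in DR1 and 24 fell and 0 rose in DR0, with medians of -1.30 and -0.71. Their summed level ran from 3575 to 3638 CPM in DR0, from 2013 to 2126 CPM in DR1 and from 5835 to 5922 CPM in AL, and none of the 25 was at 0. Of 9 intestine markers 6 fell and 2 rose in each restricted condition, and their summed level was 798.2 to 818.8 CPM in DR0, 624.3 to 671.2 CPM in DR1 and 1837 to 1879 CPM in AL. The summed level of the 11 body wall muscle markers was 1621 to 1647 CPM in DR0, 781.7 to 836.6 CPM in DR1 and 1789 to 1836 CPM in AL. That of the 10 neuron markers was 642.2 to 649.9 CPM in DR0, 483.8 to 501.0 CPM in DR1 and 482.6 to 502.4 CPM in AL. Epidermis markers summed to 138.8 to 146.4 CPM in DR0 and 116.9 to 121.4 CPM in DR1, against 1135 to 1190 CPM in AL, largely through the collagen *col-19*. Sperm markers summed to at most 7.07 CPM in DR0, 8.38 CPM in DR1 and 25.3 CPM in AL, and of 5 pharynx markers 1 was lower in DR1 and 2 were higher in DR0. These sums and calls are with TMM. With total-count scaling, 7 of 10 neuron markers were higher and 0 lower in DR1 (median 0.41, against 0.07 with TMM). There 3 of 5 pharynx markers were higher and 0 lower (median 0.31, against -0.03 with TMM). Germ line and oocyte markers still had 22 lower and 1 higher (median -0.95). The part of cell type composition in the members' changes was not tested.

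Members share features of position that their names did not select. On WBcel235, 22 of 71 (31%) lie on chromosome III, where 15.8% of the coding genes tested lie, and 0 lie on X, which holds 2056 of the 13719 coding genes tested. A coding neighbour on the same strand within 150 bp, as in worm operons, was found for 31 of 71 members (43.7%) and 17.6% of the coding genes tested. Operons were not analysed here. Exon bases are shared with another gene in 21 members.

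Such close neighbours need not change alike. *mrps-2* (chromosome V, 8465686 to 8467159) and *mrpl-4* (chromosome V, 8467265 to 8468943), both homologues of bacterial ribosomal proteins, lie 105 bp apart on the plus strand. *mrps-2* had 127, 124 and 120 CPM in DR0, 95.0, 99.5 and 91.7 CPM in DR1, and 130, 135 and 128 CPM in AL, and fell by -0.46 ± 0.05 in DR1 (edgeR adjusted p = 5.76e-08), or by -0.11 and short of the threshold with total-count scaling. *mrpl-4* averaged 33.6 ± 2.84 CPM in DR0, 37.7 ± 3.25 in DR1 and 36.2 ± 4.95 in AL, with 0.06 ± 0.10 in DR1, or a called 0.41 with total-count scaling. Reads of *mrps-2* per read of *mrpl-4* were 4.13, 3.64 and 3.30 in DR0, 2.39, 2.94 and 2.34 in DR1, and 3.11, 4.06 and 3.83 in AL, so that DR1 lay below the other conditions whatever the scaling.

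*mrps-22* (chromosome II, 10582618 to 10584236) lies 105 bp after *dap-3* (chromosome II, 10581133 to 10582512). *dap-3* averaged 39.8 ± 4.48 CPM in DR0, 46.2 ± 2.70 in DR1 and 40.2 ± 2.37 in AL (SD, n = 3). It passed the test in neither condition, at -0.02 ± 0.09 in DR0 and 0.20 ± 0.09 in DR1 against AL. Reads of *mrps-22* per read of *dap-3* were 0.521, 0.682 and 0.646 in DR0, 0.871, 0.827 and 0.813 in DR1, and 1.00, 1.01 and 1.15 in AL. The conditions did not overlap in this ratio, which was also chosen after the values were seen.

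A wider divergence was seen at *mrpl-21*, which fell by -0.60 in DR0 and -0.46 in DR1 against AL. F43C1.7, 96 bp downstream of it, was at 1.10 in DR0 and 1.11 in DR1, while *zhit-2*, 112 bp upstream, was at -0.80 and -0.54. At *mrpl-50*, which lies between the chaperonin gene *cct-2* and the enolase gene *enol-1*, the member was at -0.19 in DR0 and -0.12 in DR1. With upper-quartile scaling the value of *mrpl-50* in DR0 was 0.013 and not called. *enol-1*, 56 bp downstream, was at 0.01 in DR0 and -0.80 in DR1. Both of these members were picked for display with their values already known.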

How the data were processed

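The deposited values are whole-number read counts per gene in 9 libraries. Per their methods, the authors removed reads with a Phred score under 20, aligned the rest to WBcel235 with the annotation of Ensembl release 89 and counted over exons without strand, leaving ambiguous reads uncounted. The methods and the submitters' processing notes differ in the sequencer and the aligner version (the notes name STAR 2.73a and edgeR 3.24.3). No library was left out, and each of the 9 pairs of libraries within a condition differed by more than sampling noise.

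The tests used edgeR 4.0.16 under R 4.3.3: filterByExpr with the 3 conditions as groups, TMM, 1 mean per condition, glmQLFit and glmQLFTest over all 9 libraries, with 14332 genes tested. A gene was called at an adjusted p under 0.05. Positions, exon lengths, overlaps and neighbours came from Ensembl release 115, in which all 71 member IDs were found.

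Named members are the 5 largest rises and falls against AL, up to 4 of each between DR0 and DR1, and the 5 highest and 3 lowest per kb. Members with a suffix were added, as were those studied by RNAi or at the ribosome's core. Members that share at least 100 exon bases with another gene or adjoin another mitochondrial ribosomal protein gene were also added. Further members appear only in lists of calls or shares, or, for *mrpl-21* and *mrpl-50*, with their neighbours. The members and lists were chosen with earlier results of these data known. Of the list symbols, 22 were not found and are not counted. Alternatives were limma-voom (limma 3.58.1), DESeq2 1.42.0, RLE, total-count, upper-quartile and quantile scaling, other filters (none, and means of 1 and 5 CPM), fits of the compared conditions only, a block for the replicate number, omission of each library in turn, a test against a fold change of 1.2 and, chosen after seeing the data, removal of a trend on exon length. Figures were made with matplotlib 3.10.9. No sequences were used here.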

Additional observations from a re-analysis of the deposited data

Results flagged for a closer look

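In 3 members the restricted conditions moved in opposite directions against AL, and the direct test of DR0 against DR1 passed. How many of all genes did the same was not counted. Between DR0 and DR1 the log2 fold change came to 0.76 for *mrps-28*, 0.61 for *mrpl-41* and 0.48 for *mrpl-37*, higher in 3 of 3 DR0 libraries than in every DR1 library. Their falls in DR1 against AL became 0.05, 0.04 and 0.10 with total-count scaling and were not called with upper-quartile or quantile scaling. With the length trend removed, the rise of *mrpl-41* in DR0 against AL, of 0.31, was 0.11 and not called, and with total-count scaling the difference of *mrpl-37* between DR0 and DR1 was 0.19 and not called. With 3 libraries per condition, no test for a library far from the others was made.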

How the results depend on the processing

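Calls depended most on scaling. With total-count scaling, 22 members were higher and 10 lower in DR1 against AL, beside 7053 and 2495 of the 14332 genes tested. In DR0 against DR1, 5 members were higher and 29 lower, beside 1293 and 5609 of all genes. With upper-quartile scaling, 13 were higher and 25 lower in DR1, beside 5703 and 3251 of all genes. In DR0 against AL it gave 25 higher and 17 lower, beside 5846 and 3009. Quantile normalization gave 13 and 26 in DR1, beside 4234 and 3685, and 23 and 19 in DR0, beside 4111 and 3812. Under TMM, RLE, total-count and upper-quartile scaling, the members' median less that of all genes was -0.33 in DR1 against AL. In DR0 it was between -0.206 and -0.205 against AL and 0.13 against DR1. Quantile normalization put it at -0.16, -0.03 and 0.16. Total-count scaling turned 13 called members in DR1 against AL, of which the named ones were *mrps-28* (0.046), *mrps-18B* (0.094), *mrpl-37* (0.10), *mrpl-41* (0.044), *mrps-18.C* (0.082), *mrpl-9* (0.089), *mrps-31* (0.083) and *mrpl-12* (0.051). In DR0 against DR1 it turned 10, among the named ones *mrps-33* (-0.0010), *mrpl-2* (-9.0e-06), *mrps-18B* (-0.034), *mrps-6* (-0.080), *mrpl-35* (-0.070) and *mrpl-32* (-0.10). In DR0 against AL upper-quartile scaling turned 3, *mrps-5* (0.036), *mrpl-50* (0.013) and *mrpl-54* (0.0037), and quantile normalization turned 1, *mrpl-54* (0.0018). None of these turned values was called in its new direction. The cause was not tested. A test against a fold change of 1.2 left 2 higher and 26 lower in DR1, 7 and 17 in DR0 against AL, and 10 and 2 in DR0 against DR1. With the length trend removed, 9 were higher and 46 lower in DR0 against AL, and 2 members, *mrpl-24* and *mrps-18A*, passed 2-fold. In DR0 against DR1, 10 were then higher and 17 lower. Of called members 6 turned there, of those named *mrps-33* (-0.018), *mrpl-35* (-0.073), *mrpl-32* (-0.051) and *mrpl-54* (-0.013). These turned values were not called either.

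Leaving out each library gave 4 to 6 higher and 41 to 43 lower in DR1, 11 to 16 higher and 27 to 34 lower in DR0 against AL, and 26 to 31 higher and 7 to 9 lower in DR0 against DR1. The members past 2-fold in DR1 numbered 0 to 1 (*mrpl-36* without DR1 replicate 2, *mrps-16* without DR1 replicate 3), and 0 to 0 in the other comparisons. Over the genes tested, deviations of libraries with the same replicate number had correlations from -0.018 to 0.063. Pairs with different numbers had -0.059 to 0.049. Such values over all genes cannot show a pairing that touches few genes, and the main fit used none. With the replicate number as a block, 5 members were higher and 44 lower in DR1, 16 and 33 in DR0 against AL, and 29 and 9 in DR0 against DR1. RLE scaling, limma-voom, DESeq2, other filters and fits of the compared conditions only gave counts within 1.5 times those reported and turned no called member.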

Other observations

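The members that led the family by share of its counts differed between conditions. Within the summed counts of the 71 members, the 5 most counted took 17.1% in DR0, 17.5% in DR1 and 17.5% in AL. They were *mrps-11*, *mrps-24*, *mrpl-9*, *mrps-2* and *mrps-18C* in DR0, *mrpl-9*, *mrps-18C*, *mrpl-50*, *mrps-11* and *mrps-24* in DR1, and *mrps-24*, *mrpl-9*, *mrps-2*, *mrpl-51* and *mrpl-50* in AL. Shares within the family do not depend on library scaling. Reads of *mrps-11* per read of *mrps-24* were 1.06, 1.14 and 1.05 in DR0, 1.05, 1.15 and 1.01 in DR1, and 0.469, 0.539 and 0.508 in AL. Reads of *mrps-28* per read of *mrps-15* were 2.4, 2.01 and 2.1 in DR0, 1.13, 1.07 and 1.01 in DR1, and 1.09, 0.957 and 0.830 in AL. Both ratios were chosen after the values were seen and carry no test.

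Counts rather than molecules were measured, over exons and without strand, so that the 21 members with exon bases shared with another gene rest in part on reads that were left uncounted.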
